A study of Mus musculus with 3 samples.

Results

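This account concerns the culture interval from day 1 to day 3 in mPTECs, primary kidney cells that the labels give by this abbreviation only, and rests on 2 of the study's 3 arrays. The comparison set the day 3 array over the day 1 array across all genes with a named probe, of which 19013 of 19872 were well above background on at least 1 of the 2 arrays and were compared. The cells came from the kidneys of male mice aged 1 month. The day 1 and day 3 groups had spent 1 and 3 days on culture dishes, and the day 0 group was taken fresh from isolation. The cultured cells of both days were kept in DMEM/F12 with insulin-transferrin-selenium, MEM non-essential amino acids, penicillin, streptomycin, 0.1 µM hydrocortisone and 1% FBS, and no other treatment is labelled. Each group was 1 sample, labelled with Cy3 from 1 µg of RNA and hybridised to 1 array. How many mice were used or pooled is not given in the sources used here. No difference between days therefore has a replicate check, and no test was made.

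Proximal tubule cells line the first segment of the nephron, where they reclaim phosphate, glucose, amino acids and filtered protein through a brush border and secrete organic ions, drawing much of their energy from fatty acids. In the body they divide seldom. On plastic they attach, spread, lose part of this transport equipment and can enter the cell cycle, in which genes of DNA replication act before those of mitosis. Day 0 values are given beside those of day 1 and day 3 so that the later interval can be read apart from the first day. The 2 intervals share the day 1 array, so an error on that array would move both, in opposite directions.

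Signals are log2 values of the spot intensity relative to the array's 75th percentile, so 0 lies at that percentile and a difference of 1 is a 2-fold ratio. The median log2 ratio of day 3 over day 1 was -0.04 over all genes compared, with quartiles of -0.40 and 0.27. At least 4-fold differences numbered 308 higher on day 3 (1.62% of the genes compared) and 250 lower (1.31%). At least 2-fold differences numbered 1323 higher (6.96%) and 1565 lower (8.23%), which leaves 16125 genes (84.8%) under 2-fold. Either way, 2.93% reached 4-fold, and 8-fold was reached upwards by 0.626% and downwards by 0.352%. By any amount, 45.8% were higher and 53.7% lower. These shares over all genes are the base for the counts of list members and markers given below. Repeated spots of a probe spread by a median SD of 0.14 (464 values), which gives a ratio of 2 arrays a spread of 0.20. Different probes of a gene spread by a median SD of 0.27 in their log2 ratio (7575 genes). Both spreads are technical and say nothing of the difference between cultures.

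The zero point of the ratios depends on the scaling. Scaling on the arrays' spike-in controls would add 0.45 to every log2 ratio, centring on the array median would add 0.10, and scaling on 12 reference genes would subtract 0.22. A gene whose ratio is smaller than these shifts, such as Hnf4a, Cpt2 or Abcg2 below, has no settled side of 0. Of the genes at least 4-fold different, 55.2% were higher on day 3. That share became 81.3% with the spike-in controls, 63.4% with the median, 61.7% after quantile normalization and 39.8% with the reference genes. With the normexp background correction 132 genes were at least 4-fold lower, and 215 were higher. A list is called higher or lower below only where its median exceeds the spread of 0.27 between probes. With reference gene scaling some medians above that spread fell within it. These were the Wnt (0.05), glycolysis (0.10), basement membrane (0.15), injury (0.18), junction (0.19), Atf4 (0.20), matrix protease (0.22) and TGF-beta (0.23) lists.

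The label was checked against cell type markers. All 16 proximal tubule markers were well above background on day 0 and day 1, and 15 were so on day 3, Cyp2e1 being the exception. Their summed signal was 162140% of the 75th percentile on day 0, 33477% on day 1 and 4189% on day 3. The samples thus carried the markers of their label, at a signal that was lower at each later time. All markers of each of the 11 cell types were well above background on day 0, so presence alone does not set this label apart. On day 0 the proximal tubule sum was the highest, ahead of the loop of Henle at 60094%. On day 3 the proximal tubule sum stood below the mesothelial sum of 20835%. Such sums rest on unlike numbers of markers and weigh the brightest markers most, so they do not compare numbers of cells. The median log2 ratio of the mesothelial markers from day 1 to day 3 was 0.99. Markers of other cells were present as well: of 11 endothelial markers, 11 were well above background on all 3 arrays, as were 9 of 9 mesothelial and 12 of 12 fibroblast and pericyte markers. In these bulk samples, fewer cells of a type and less RNA of its genes per cell cannot be told apart.

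**Figure D1:**
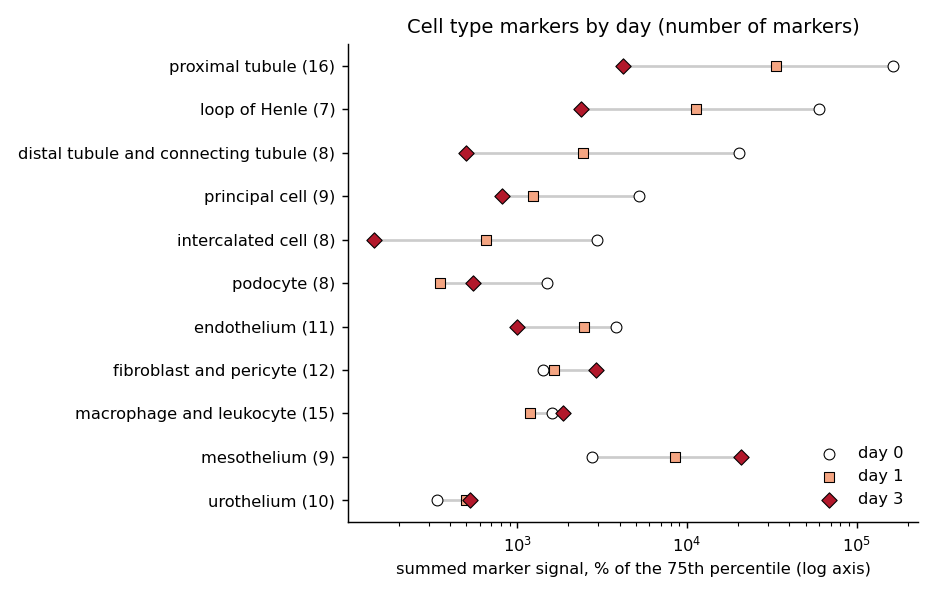
Summed signal of the markers of each cell type on the 3 arrays (percent of the array's 75th percentile, log axis, number of markers in brackets, 1 array a day). Proximal tubule, loop of Henle, distal tubule and intercalated cell markers were lowest on day 3, while mesothelial markers went from 2759% on day 0 to 8533% on day 1 and 20835% on day 3.

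Between day 1 and day 3 the genes with the highest ratios came mainly from mitosis and from cytokines, and those with the lowest ratios from proximal tubule transport and metabolism. Csf2, which encodes the granulocyte-macrophage colony stimulating factor, had the highest ratio among genes measured on both arrays, with a signal of -5.86 on day 0, -5.17 on day 1 and 1.496 on day 3. Its day 3 signal was 102-fold that of day 1, while its first 2 values lay close together. With normexp its log2 ratio was 5.30 in place of 6.67. The Csf2 probe maps to chr11:54060772-54060799 of mm9, the build of the array files. Pimreg, a regulator of metaphase, followed at 98.3-fold, from -4.55 to 2.07. Cdkn3, a phosphatase that acts on cyclin-dependent kinases, was 88.6-fold higher, from -3.40 to 3.07, and its other probe above background gave a log2 ratio of 4.59. Each of these 3 genes was low on day 0 and day 1 and high on day 3.

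Ppbp and Cxcl5, chemokines that attract neutrophils, were 86.7-fold and 70.8-fold higher on day 3 than on day 1. Ppbp had a signal of -1.67 on day 0, -3.33 on day 1 and 3.11 on day 3. Msln, the mesothelial surface protein mesothelin, was 40.3-fold higher, at -4.41 on day 0, -1.22 on day 1 and 4.12 on day 3. Leaving out bounds and genes whose probes disagreed, the rest of the 12 highest ratios were those of Cdc20 (43.2-fold), Ube2c (41.6-fold), Cdca3 (35.9-fold), Iqgap3 (35.4-fold), Plk1 (34.9-fold) and Sapcd2 (32.5-fold). Cdc20, Ube2c and Plk1 drive the passage through mitosis, and Iqgap3 is a scaffold protein of the cytoskeleton, with a log2 ratio of 2.30 by the mean of its probes.

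Slc34a3 and Slc34a1, the sodium-phosphate cotransporters NaPi-IIc and NaPi-IIa of the brush border, were 65.3-fold and 51.2-fold lower on day 3 than on day 1. Slc34a1 had a signal of 6.79 on day 0, 3.75 on day 1 and -1.92 on day 3. Its probe lies at chr13:55515201-55515259 (mm9). Both cotransporters stepped down at each interval, the second step being the larger, with log2 ratios of -3.04 and then -5.68 for Slc34a1 and of -2.87 and then -6.03 for Slc34a3.

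Other low ratios belonged to enzymes. Cyp2d26 (54.5-fold lower), Cyp2d12 (35.7-fold) and Cyp4a14 (a log2 ratio of -4.32) are cytochromes P450, Akr1c21 (42.5-fold) and Rdh16f2 (37.0-fold) reduce or oxidise steroids and retinoids, Ces1d (26.6-fold) is a carboxylesterase, Dnase1 (33.1-fold) digests DNA and Miox (27.3-fold) opens the ring of inositol. The Cyp2d genes form a family of close copies, so their probes may share transcripts. Miox had a signal of 8.54 on day 0, 6.63 on day 1 and 1.86 on day 3. Spp2, a secreted phosphoprotein, was 49.5-fold lower, from 4.72 to -0.90. Mmp3, the matrix protease stromelysin 1, was the 1 gene among these 12 with its highest value on day 1: -5.46 on day 0, 2.65 on day 1 and -2.32 on day 3, 31.3-fold lower than on day 1.

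**Figure D2:**
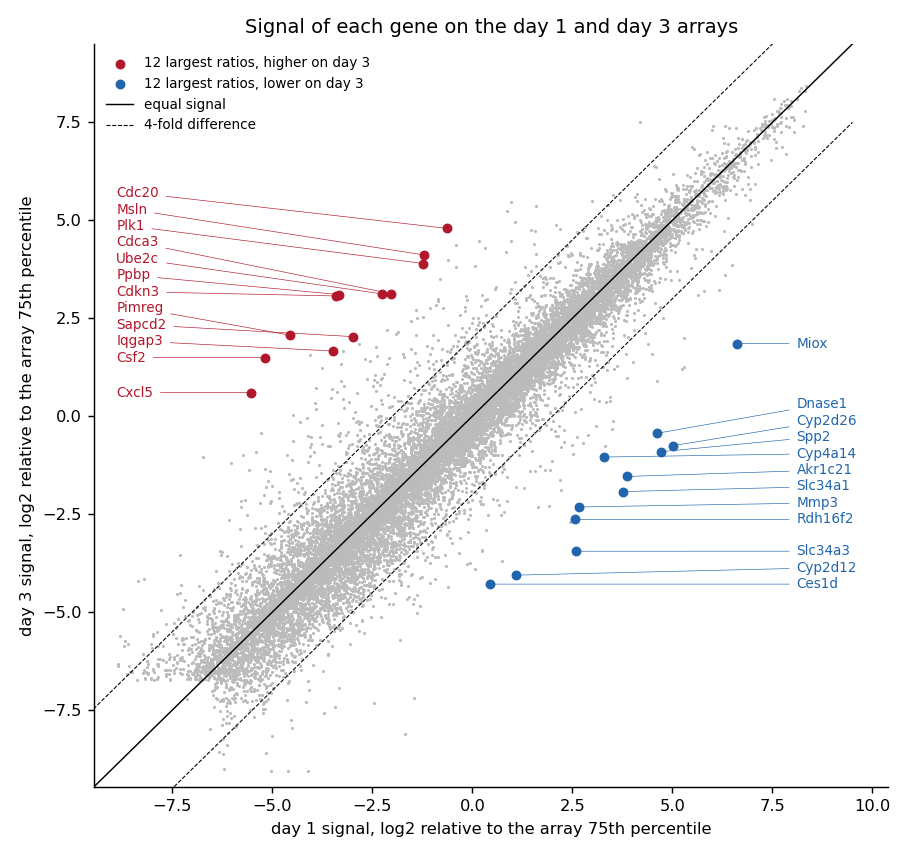
Signal of each gene compared on the day 1 array (horizontal) and the day 3 array (vertical), log2 relative to each array's 75th percentile, with 1 array a day and the 12 named genes of largest ratio in each direction in colour. Csf2 lies 102-fold above the line of equal signal and Slc34a3 65.3-fold below it; 84.8% of genes lie within 2-fold of the line.

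Where a gene was not well above background on 1 of the arrays, its ratio is given as a bound: on the faint array the gene was set to that array's dimmest reliable signal, or to its own signal if that was higher. Such bounds numbered 538. Erfe, which encodes erythroferrone, was at least 46.1-fold higher on day 3, where its signal was -1.03, and was not well above background on day 0 or day 1. Entpd3, an ectonucleotidase, Spink12 and Dspp were at least 10.9-fold, 8.02-fold and 6.99-fold higher. In the other direction Cyp2e1, a cytochrome P450, was at least 53.1-fold lower, from -1.45 on day 1 to not well above background on day 3. Slc22a29 and Slc22a28, of the organic anion transporter family, were at least 46.5-fold and 13.9-fold lower. Fabp1, a fatty acid binding protein, was at least 27.0-fold lower, from 2.12 on day 0 and -2.47 on day 1. These bounds rest on the faint end of the arrays, where the lowest signal well above background was 1.06% of the 75th percentile on day 1 and 0.670% on day 3, and they hold only for this background correction. With normexp the log2 ratios became smaller, at 3.33 for Erfe, 1.88 for Entpd3, 1.31 for Spink12 and 1.26 for Dspp. In the other direction they became -3.01 for Cyp2e1, -2.67 for Slc22a29, -2.01 for Fabp1 and -1.55 for Slc22a28, so that the last was under 4-fold.

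Genes that moved late, under 2-fold from day 0 to day 1, separate the interval from the first day most directly. The 6 highest ratios among them were those of Csf2, Pimreg, Cdkn3, Cdc20, Ube2c and Cdca3. Cdc20, the activator of the anaphase-promoting complex, had a signal of -0.86 on day 0, -0.64 on day 1 and 4.79 on day 3, with its probe at chr4:118105536-118105595 (mm9). Ube2c, the ubiquitin-conjugating enzyme of the same complex, had -2.68, -2.26 and 3.12 on the 3 days. In both genes the first 2 values differed by under 0.5 and the third stood more than 5 above them.

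The lowest ratios among such late genes came from cytochromes and from proton pump subunits. Cyp2a4, a steroid hydroxylase, had a signal of 5.17 on day 0, 5.25 on day 1 and 1.20 on day 3, 16.6-fold lower than on day 1. Cyp2a22 was 15.7-fold lower and Cyp2a5 9.71-fold lower; the Cyp2a genes are near-identical copies whose probes may read each other's transcripts, so the 3 values are not independent. Fa2h, a fatty acid hydroxylase, was 9.41-fold lower, from 0.33 to -2.90. Atp6v0d2 and Atp6v1g3, proton pump subunits used by intercalated cells, were 9.18-fold and 8.77-fold lower. Atp6v1g3 had a signal of 2.11 on day 0, 1.29 on day 1 and -1.84 on day 3. From day 0 to day 1 the log2 ratio was 0.98 for Atp6v0d2, 0.81 for Cyp2a22 and -0.82 for Atp6v1g3, inside the 2-fold limit of the rule. By the mean of its probes Atp6v1g3 had a log2 ratio of -1.65 from day 1 to day 3. All 8 markers of intercalated cells had ratios below 0, against 53.7% of all genes, and 3 were at least 4-fold lower, against 1.31%. Their summed signal was 2942% of the 75th percentile on day 0, 656% on day 1 and 143% on day 3. Both pump subunits are among these 8 markers and among the 3, so the counts and the sum hold their own values. The part of intercalated cells in the pump subunit values was not tested. With spike-in scaling 2 of those 8, Slc4a1 and Foxi1, would lie above 0.

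A smaller set reversed, being at least 4-fold different from day 0 to day 1 and at least 4-fold the other way from day 1 to day 3. Il1b, the cytokine interleukin 1 beta, had a signal of -0.25 on day 0, -5.02 on day 1 and -1.77 on day 3. Its log2 ratio over day 1 was 3.25, or 2.13 with normexp. Ccl3, a macrophage chemokine, had -0.32, -3.36 and -0.48, which returned it to near its day 0 value. Foxj1, the factor of motile cilia, was 7.35-fold higher on day 3 than on day 1, at -3.02, -5.04 and -2.16, with a log2 ratio of 1.81 with normexp. Arhgef39, a guanine nucleotide exchange factor, was 14.4-fold higher by its brighter probe, with a log2 ratio of 1.32 by its other. Reversing downwards were Mmp3, Vstm2b (at least 11.4-fold lower, a log2 ratio of -1.38 with normexp), Snora3 (8.37-fold lower), a small nucleolar RNA, and Oasl2 (7.16-fold lower), an interferon-induced gene. Oasl2 had a signal of -1.51 on day 0, 1.44 on day 1 and -1.40 on day 3.

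**Figure D3:**
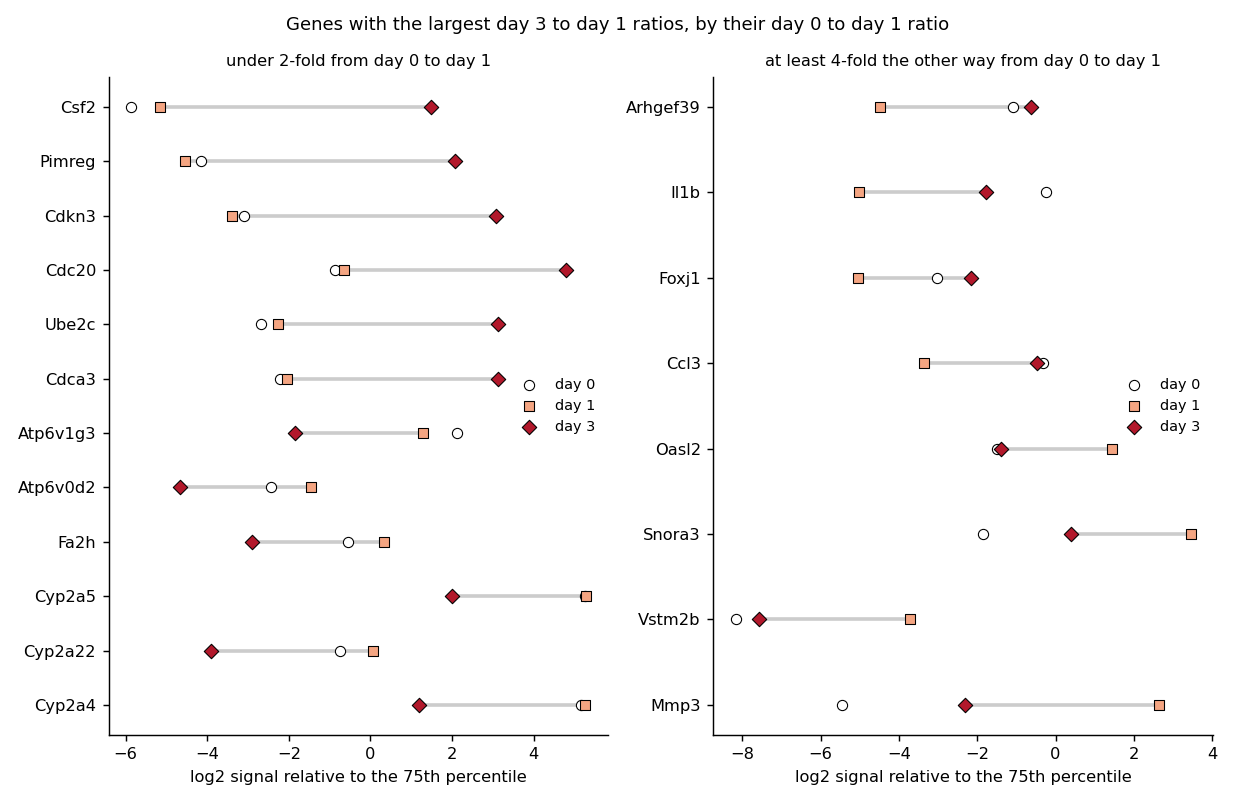
Signals on the 3 days (log2 relative to the 75th percentile, 1 array a day) of the genes with the largest day 3 over day 1 ratio that were under 2-fold different from day 0 to day 1 (left) or at least 4-fold different the other way (right). On the left the day 0 and day 1 symbols lie close together, as for Cdc20 at -0.86 and -0.64, with day 3 at 4.79.

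Genes of mitosis were higher on day 3 as a block. Over 4 lists of mitotic genes, 75 of the 90 members compared were at least 4-fold higher than on day 1, against 1.62% of all genes, none was 4-fold lower, and the median log2 ratio was 3.27. Of the 90, 89 lay above 0, the exception being Pttg1, or securin, at -0.10. Pttg1 would lie above 0 with spike-in scaling. The 3 lowest ratios above 0 were those of Wee1, Bub1 and Kif24, at 0.03, 0.11 and 0.17, which would lie below 0 with reference gene scaling. The other Bub1 probe gave a log2 ratio of 4.47.

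The kinases and cyclins that start mitosis had a median signal of -2.58 on day 0, -1.05 on day 1 and 1.86 on day 3, and 14 of 18 were at least 4-fold higher. Plk1, a kinase of mitotic entry, had -2.13 on day 0, -1.23 on day 1 and 3.90 on day 3. Ccnb2, a B-type cyclin, was 27.6-fold higher, from -0.40 to 4.38. Ccna2, cyclin A2, was 19.6-fold higher and Aurka, the Aurora A kinase of the spindle pole, 18.7-fold higher. For all 4 genes day 3 was the high array, and day 0 and day 1 were the low ones.

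At the kinetochore, where chromosomes meet the spindle, 27 of 30 members were at least 4-fold higher, at a median log2 ratio of 3.27. Cenpe, a kinetochore motor, had a signal of -1.08 on day 0, -0.62 on day 1 and 3.99 on day 3, 24.5-fold higher than on day 1. Birc5, or survivin, of the chromosomal passenger complex, was 22.9-fold higher, from 0.96 to 5.48. Cenpa, the centromeric histone, gave 49.0-fold and Ska1, a kinetochore coupler, 25.6-fold by their brighter probes, but their other probes gave log2 ratios of 0.27 and -1.08, so both values are uncertain.

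Among motors and builders of the spindle and the cleavage furrow, 22 of 25 were at least 4-fold higher, at a median log2 ratio of 3.67, the highest of the 49 lists. Hmmr, a spindle-associated hyaluronan receptor, had a signal of -3.84 on day 0, -2.95 on day 1 and 1.96 on day 3, a log2 ratio of 4.91 over day 1. Kif2c, which shortens microtubules, was 28.8-fold higher, from -5.28 to -0.43. Kif20a, a motor of cytokinesis, was 19.9-fold higher, from 0.16 to 4.47. Nusap1, a bundler of spindle microtubules, was 24.4-fold higher, with a log2 ratio of 1.47 by its other probe. In the list of anaphase and chromosome condensation 12 of 17 were at least 4-fold higher. Mki67, the proliferation antigen Ki-67, had -1.51 on day 0, 0.31 on day 1 and 4.30 on day 3.

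Promoter sequences are shown for mitotic genes because so many of them were higher together on day 3. RefSeq promoters on GRCm38.p6 were matched for 77 of the 91 mitotic genes listed. The letters searched were TTTGAA, the core of the cell cycle homology region, and CCAAT, the box named for its letters. Both strands of the 250 bases before the start were searched. Each motif was searched by itself, and overlap between them was not checked. TTTGAA occurred in 24 of the 77 promoters (31.2%), against 16.3% of 27025 promoters, and CCAAT in 51 (66.2%), against 34.5%. Both occurred in 24.7%, against 5.73%. CCAAT was not particular to the mitotic lists. In the lists of DNA replication described below it occurred in 23 of 39 promoters (59.0%), and TTTGAA in 6 (15.4%). When the 50 bases after the start were included, a window chosen after the values were seen, TTTGAA occurred in 63.6% of the mitotic promoters and 18.1% of all. A match describes letters and is not a bound site. The 150 bases before the start follow, 5′ to 3′ along the gene, for 4 members with high ratios that hold both motifs there. The motifs on either strand are in capitals. The choice did not cover every member, so others with higher ratios may hold both motifs too. The stretches are chr4:118437344-118437493 on the minus strand for Cdc20, chr2:164769779-164769928 on the plus strand for Ube2c, chr19:37376232-37376381 on the plus strand for Kif11 and chr2:129297213-129297362 on the minus strand for Ckap2l.
Cdc20: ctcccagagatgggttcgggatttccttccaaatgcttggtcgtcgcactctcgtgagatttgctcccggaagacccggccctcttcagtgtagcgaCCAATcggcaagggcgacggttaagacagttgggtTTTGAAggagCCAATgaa
Ube2c: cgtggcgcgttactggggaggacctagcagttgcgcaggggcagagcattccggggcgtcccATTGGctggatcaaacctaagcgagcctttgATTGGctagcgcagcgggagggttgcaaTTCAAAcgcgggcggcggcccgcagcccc
Kif11: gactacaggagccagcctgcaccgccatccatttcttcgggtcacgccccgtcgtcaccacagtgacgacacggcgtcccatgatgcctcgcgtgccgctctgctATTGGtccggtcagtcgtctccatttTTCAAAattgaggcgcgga
Ckap2l: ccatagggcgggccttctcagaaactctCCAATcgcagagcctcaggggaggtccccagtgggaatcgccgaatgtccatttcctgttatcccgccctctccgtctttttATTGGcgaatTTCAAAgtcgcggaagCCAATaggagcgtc
In these 4 promoters the TTTGAA letters began 18, 29, 19 and 30 bases before the start, in the order printed, and at least 1 CCAAT lay further upstream in each. Kif11 and Ckap2l encode a spindle motor and a spindle protein, with log2 ratios of 4.22 (2.91 by its other probe) and 4.10.

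Genes of DNA replication were higher too, by less, and a larger share of their difference lay in the first day. Over the lists of replication licensing and of DNA synthesis, all 48 members had a ratio above 0 and 11 were at least 4-fold higher on day 3 than on day 1, with a median log2 ratio of 1.43; with reference gene scaling not all of them would lie above 0. The licensing list had a median log2 ratio of 2.15 from day 0 to day 1 and of 1.41 from day 1 to day 3. The spindle list ran in the other order, with 0.90 from day 0 to day 1 and 3.67 from day 1 to day 3. Whether the lists differ beyond the spread between cultures could not be tested.

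Cdc45, a helicase cofactor, had a signal of -5.12 on day 0, -2.63 on day 1 and -0.23 on day 3, 5.27-fold higher than on day 1. Gins2, of the same helicase complex, was 4.23-fold higher, and Clspn, a fork protein that was not well above background on day 0, 4.67-fold higher. Dbf4, which activates the Cdc7 kinase, was 4.63-fold higher, with its other probes at log2 ratios of 0.70 and 2.56. Tk1, thymidine kinase, had -0.52 on day 0, -0.12 on day 1 and 2.97 on day 3, 8.56-fold higher and with little difference over the first day. Rrm2, a ribonucleotide reductase subunit, was 7.30-fold higher, from 0.24 to 3.11, and Asf1b, a histone chaperone, 5.18-fold higher. Pole, a DNA polymerase subunit, gave 4.66-fold by its brighter probe but a log2 ratio of -1.04 by its other.

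Regulators of the step from G1 to S had a median log2 ratio of 0.95, and 3 of 18 were at least 4-fold higher. These were E2f7 (8.23-fold), E2f8 (6.34-fold) and E2f1 (5.13-fold), of which E2f1 activates and the other two repress E2F targets. E2f1 had a signal of -3.73 on day 0, -2.37 on day 1 and -0.01 on day 3, while the other E2f7 probe gave a log2 ratio of 0.71. Ccne1, cyclin E1, was 3.15-fold higher. Myc and Cdk6, which promote G1 progression, had log2 ratios of -0.37 and -0.07, both above 0 with spike-in scaling. In homologous recombination and its checkpoint 9 of 16 were at least 4-fold higher, at a median of 2.15. Fancd2 of the Fanconi pathway had -2.56 on day 0, -2.27 on day 1 and 0.32 on day 3, 6.01-fold higher than on day 1. Pbk, a mitotic kinase, was 13.6-fold higher, whereas Fanci had a log2 ratio of 3.33 by its brighter probe and -0.63 by its other. In the replication lists, 8 of 39 promoters (20.5%) held 1 of the E2F octamers, against 1.91% of all promoters. In the mitotic lists 7 of 77 promoters (9.09%) did. The octamers were TTTGGCGC, TTTCCCGC, TTTGCCGC and TTTCGCGC, on either strand of the 250 bases before the start.

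Trp53 targets and inhibitors of cyclin-dependent kinases had a median log2 ratio of 0.21, within the spread between probes. Of 27, 0 were at least 4-fold different either way, against 2.93% of all genes. Cdkn2d, the inhibitor p19, had a signal of 1.49 on day 0, -0.62 on day 1 and 1.30 on day 3, 3.79-fold higher than on day 1, and Cdkn2c, or p18, was 2.13-fold higher. Plk2, a stress-responsive kinase, was 2.83-fold higher and Pmaip1, the apoptosis factor Noxa, 2.11-fold higher. Plk3 was 2.14-fold lower.

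**Figure D4:**
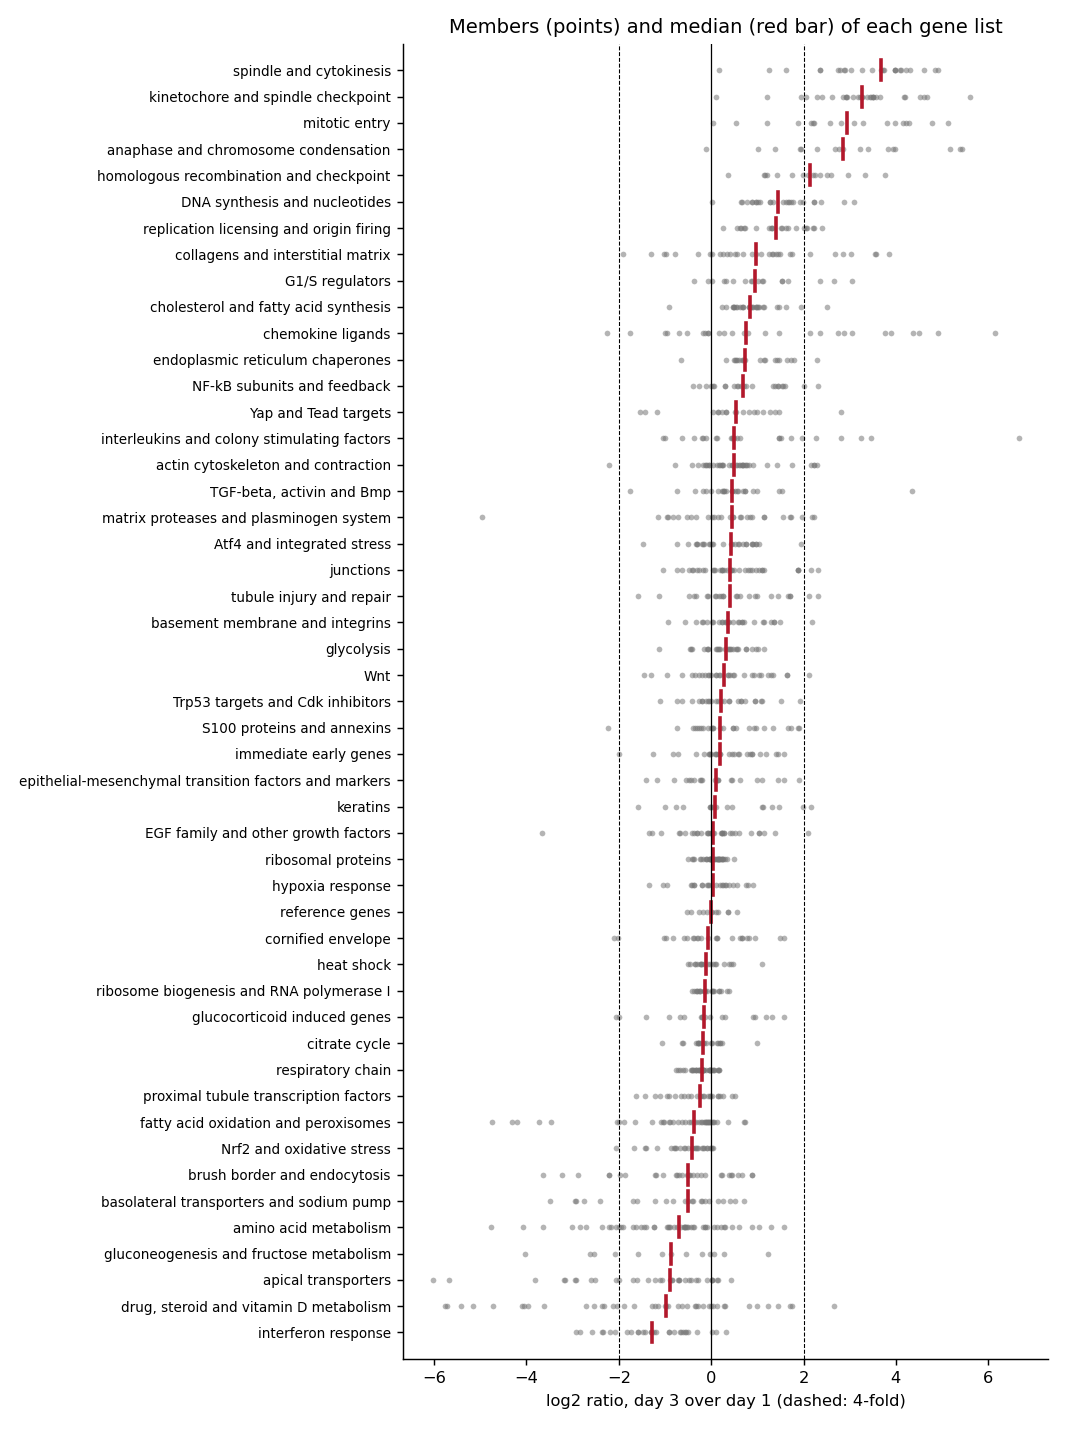
Log2 ratio of day 3 over day 1 for each member compared (grey points) of 49 gene lists, sorted by their median (red bar), 1 array a day. The 4 mitotic lists lie at the top with medians of 2.86 to 3.67, and the interferon list lies at the bottom at -1.29; dashed lines mark 4-fold.

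Cytokine genes were higher on day 3 in part of their lists. Among chemokine ligands 11 of 28 were at least 4-fold higher than on day 1, against 1.62% of all genes. Only 1 was 4-fold lower, against 1.31% of all genes, and the median log2 ratio was 0.75. The list split into genes with large ratios and genes near or below 0, and 10 of 28 had a ratio below 0, against 53.7% of all genes. Cxcl2, a neutrophil chemokine, had a signal of -4.80 on day 0, -3.23 on day 1 and 1.68 on day 3, 29.9-fold higher than on day 1. Cxcl3, of the same group, was 22.6-fold higher and was not well above background on day 0. With normexp the Cxcl3 log2 ratio was 2.96 in place of 4.50. Ccl2, which recruits monocytes, had -2.51 on day 0, 0.85 on day 1 and 5.23 on day 3, 20.8-fold higher. Against these, Ccl5, an interferon-responsive chemokine, had -0.66 on day 0, 4.77 on day 1 and 2.51 on day 3, 4.77-fold lower, and Cxcl11, another such gene, was 3.39-fold lower.

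Interleukins and colony stimulating factors had a median log2 ratio of 0.50, and 5 of 25 were at least 4-fold higher, against 1.62% of all genes. Besides Csf2 and Il1b these included Il33, an alarmin of barrier cells, which had a signal of -3.24 on day 0, -2.88 on day 1 and 0.58 on day 3, 11.1-fold higher. Csf3, the granulocyte colony stimulating factor, was 6.98-fold higher, from -3.55 to -0.75. Il1rn, the interleukin 1 receptor antagonist, ran the other way, at -5.08 on day 0, 2.84 on day 1 and 1.81 on day 3. Il6ra, a receptor subunit, was 2.01-fold lower, with a log2 ratio of 0.02 by its other probe. Among NF-kB subunits and feedback genes 2 of 24 were at least 4-fold higher, at a median of 0.68. Tnfaip3, the feedback inhibitor A20, had 0.73 on day 0, 1.20 on day 1 and 3.21 on day 3, 4.04-fold higher. Vcam1, an adhesion molecule, was 4.98-fold higher by its brightest probe, with others at log2 ratios from -0.50 to 2.24. Ptgs2, or cyclooxygenase 2, was 3.01-fold higher and Zc3h12a, an RNase that degrades cytokine messages, 2.94-fold higher.

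The macrophage and leukocyte markers, whose cells also make these factors, had 0 of 15 at least 4-fold higher, against 1.62% of all genes. With so few markers, that count lies near the share over all genes. Their median log2 ratio was 0.00, and their summed signal was 1602% of the 75th percentile on day 0, 1187% on day 1 and 1852% on day 3. Ptprc, the common leukocyte antigen, had a log2 ratio of -0.10, with other probes from -4.38 to 0.44, and Lyz2, a lysozyme of macrophages, one of 1.13. The part of such cells in the cytokine values was not tested.

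Chemokine promoters are shown because chemokine genes with high ratios, Ppbp, Cxcl5, Cxcl3 and Cxcl2 among them, lie close together on chromosome 5. Promoters were matched for 61 of the 82 genes of the 3 lists of cytokines and NF-kB. The NF-kB motif, written here as GGG, any base and ATTTCC, was searched on both strands of the 250 bases before the start and occurred in 6 of them (9.84%), against 0.289% of all promoters. The 3 members with the highest ratio that hold it in the 150 bases before the start were Cxcl2, Cxcl3 and Cxcl1, all neutrophil chemokines. They are close relatives, so their promoters are not independent. Cxcl5, with a higher log2 ratio of 6.15, was not among the members picked, and Ppbp was in none of the 3 lists. The motif is thus not described for every chemokine gene with a high ratio in this region. The stretches, with the motif in capitals, are chr5:90903749-90903898 on the plus strand for Cxcl2, chr5:90785951-90786100 on the plus strand for Cxcl3 and chr5:90891095-90891244 on the plus strand for Cxcl1 of GRCm38.p6.
Cxcl2: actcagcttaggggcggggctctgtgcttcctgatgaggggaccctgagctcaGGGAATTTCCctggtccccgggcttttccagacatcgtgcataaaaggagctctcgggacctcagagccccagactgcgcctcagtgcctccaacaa
Cxcl3: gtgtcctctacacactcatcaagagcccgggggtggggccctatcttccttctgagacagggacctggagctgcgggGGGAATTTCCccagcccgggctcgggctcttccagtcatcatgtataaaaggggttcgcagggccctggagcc
Cxcl1: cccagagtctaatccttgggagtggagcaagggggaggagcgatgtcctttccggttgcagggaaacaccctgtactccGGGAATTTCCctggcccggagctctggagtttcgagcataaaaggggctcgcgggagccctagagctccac
The same 10 letters, GGGAATTTCC, stood in all 3, beginning 97, 73 and 71 bases before the start. Cxcl1 had a signal of -0.77 on day 0, 1.07 on day 1 and 4.96 on day 3, a log2 ratio of 3.89.

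The interferon response ran against the cytokines. It had the lowest median of the 49 lists, -1.29, with 7 of 31 members at least 4-fold lower on day 3 than on day 1 (1.31% of all genes were), 18 at least 2-fold lower and none 2-fold higher. Its median signal was -0.71 on day 0, 1.00 on day 1 and -0.51 on day 3, so the list stood highest on the middle array. Ifi44 had a signal of -0.91 on day 0, 0.40 on day 1 and -2.53 on day 3, 7.62-fold lower than on day 1. Usp18, which removes Isg15 from proteins and damps the response, had -1.61, 2.08 and -0.51, 6.01-fold lower. Ifit1, which binds foreign RNA, had -1.52, 1.48 and -0.88, 5.13-fold lower. Of the 3 members with ratios above 0, Ifit3 had 0.31, and Ifit2 and Irf1, at 0.01 and 0.10, would lie below 0 with reference gene scaling. With spike-in scaling the median was -0.84.

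**Figure D5:**
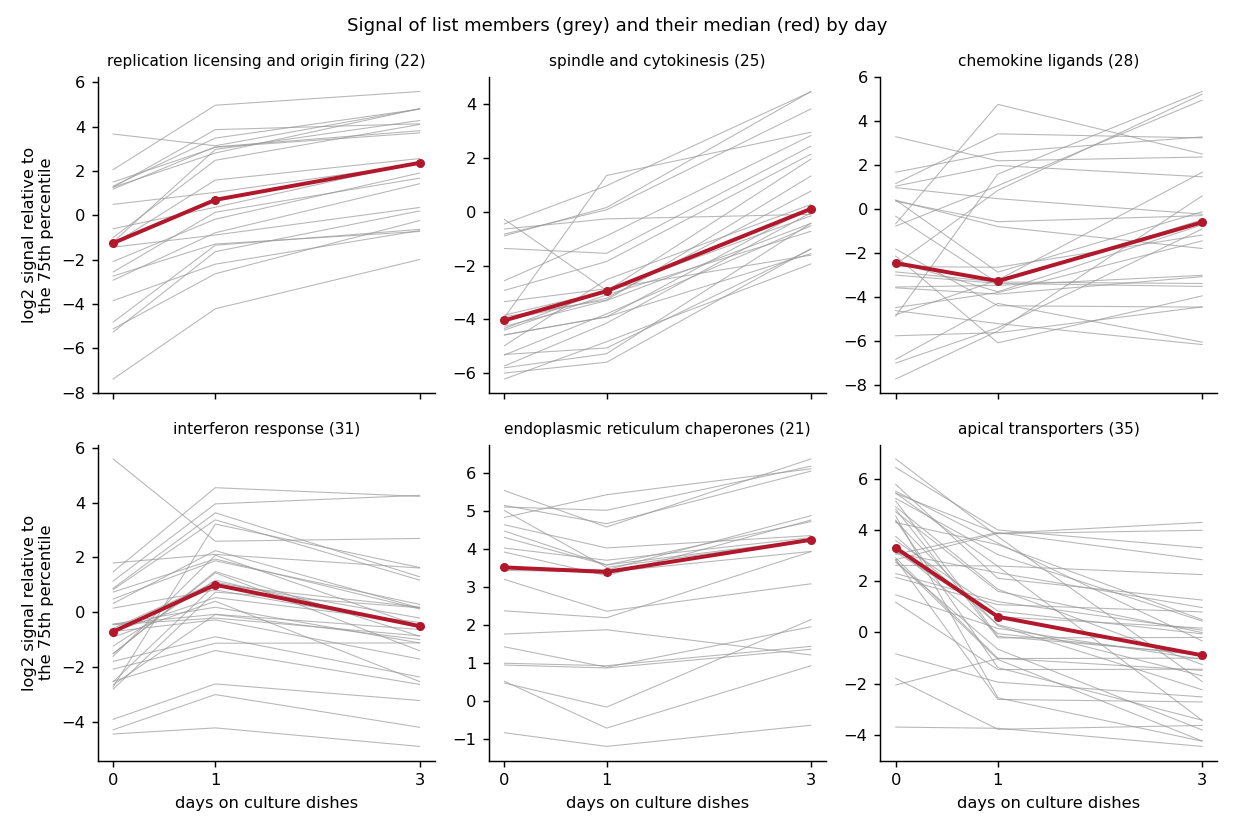
Signals of list members (grey lines) and their median (red) on day 0, day 1 and day 3, log2 relative to the array's 75th percentile, 1 array a day, with the number of members in brackets. The spindle list steps up mainly after day 1 (-4.04, -2.95 and 0.11), the licensing list at both intervals, and the interferon list peaks on day 1.

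Matrix genes differed by class. Collagens and other interstitial matrix genes had a median log2 ratio of 0.98, and 7 of 33 were at least 4-fold higher on day 3, against 1.62% of all genes. None was 4-fold lower. Col1a2, a chain of type I collagen, had a signal of 0.98 on day 0, -0.87 on day 1 and 2.98 on day 3, 14.5-fold higher than on day 1, with a log2 ratio of 2.15 by the mean of its probes. Col1a1, the other chain, was 11.7-fold higher by its brightest probe, with others at log2 ratios from -0.21 to 1.11. Lox, which crosslinks collagen, was 11.8-fold higher, from -5.69 to -2.13, and Fbln2, an elastic fibre protein, 8.14-fold higher. With normexp the Lox log2 ratio was 2.07 in place of 3.56. Tgfbi and Eln, an adhesion protein and elastin, were 3.74-fold and 2.46-fold lower. Col1a1 and Col1a2 are also markers of fibroblasts: of 12 fibroblast and pericyte markers 2, these collagens, were at least 4-fold higher, while Pdgfrb, Lum, Postn and Dcn had log2 ratios of -1.18, -1.01, -0.99 and -0.77. Of the 12, 6 had ratios above 0 and 6 below, at a median of -0.05. At least 2-fold differences numbered 3 higher and 2 lower. The summed signal of the 12 was 1415% of the 75th percentile on day 0, 1638% on day 1 and 2896% on day 3, and its part in the collagen values was not tested.

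Basement membrane genes and integrins had a median of 0.37 and matrix proteases one of 0.44. Nid1, the linker nidogen 1, had a signal of 0.49 on day 0, 0.95 on day 1 and 3.13 on day 3, and was the 1 member of 30 at least 4-fold higher in the first list. Itgb4, an integrin of hemidesmosomes, and Lamb3, a laminin chain of the same contacts, were 2.81-fold and 2.56-fold higher. Mmp2, gelatinase A, and Adamts5, an aggrecanase, were 4.70-fold and 4.54-fold higher. Mmp3 stood apart from the other proteases, as given above.

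Yap and Tead targets had a median of 0.53, actin and contraction genes one of 0.49. Ankrd1, a target of stretched cells, had a signal of -2.39 on day 0, 2.09 on day 1 and 4.89 on day 3, 6.97-fold higher and the 1 Yap target of 20 past 4-fold. Axl and Ccn1 were 2.76-fold and 2.42-fold higher. Tagln, Cnn1 and Myl9, proteins of smooth muscle contraction, were 4.88-fold, 4.69-fold and 4.50-fold higher, and Cnn2 4.71-fold. Myl9 had 3.94 on day 0, -0.96 on day 1 and 1.21 on day 3, and Cnn1 -0.47, -2.81 and -0.58, so both were below day 0 on day 1 and only Myl9 was clearly below it on day 3. Vil1, villin of the brush border, was the 1 actin gene of 40 at least 4-fold lower, at 4.44, 4.33 and 2.11.

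In the TGF-beta, activin and Bmp list the median was 0.46, and Fst stood apart. Follistatin, its product, binds activin, and its signal was -1.81 on day 0, -2.14 on day 1 and 2.21 on day 3, 20.4-fold higher than on day 1. Inhba, the activin A subunit, was 2.89-fold higher, from -0.21 to 1.32, and Tgfb2 2.77-fold higher. Grem1, a Bmp antagonist, was 3.37-fold lower. Wnt genes had a median of 0.28, with Dkk3 4.34-fold, Wnt2 3.14-fold and Wnt4 3.13-fold higher and Wnt9b 2.76-fold lower. With normexp the log2 ratios were 1.40 for Dkk3, 0.66 for Wnt2 and 0.98 for Wnt4, so Wnt2 and Wnt4 were under 2-fold. Growth factors had a median of 0.04, within the spread between probes; Egf, made by the loop of Henle and distal tubule, was the 1 member of 35 past 4-fold downwards, as Igfbp2, at 4.29-fold higher, was upwards. Egf had a signal of 7.24 on day 0, 3.52 on day 1 and -0.13 on day 3. Egf is itself 1 of the 7 loop of Henle markers. Of these, 2 lay 4-fold or more below day 1, against 1.31% of all genes, and Egf was 1 of the 2. The list, Egf included, had a summed signal of 60094%, 11240% and 2369% of the 75th percentile on the 3 days. The part of loop cells in the Egf value was not tested.

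Junction genes had a median of 0.41. Cldn16, a claudin of the loop of Henle, had a signal of 0.53 on day 0, -0.91 on day 1 and 1.41 on day 3, 4.97-fold higher than on day 1 although the other loop markers Umod and Slc12a1 had log2 ratios of -2.70 and -1.93 (-0.48 by the other Slc12a1 probe). Gja1, a gap junction connexin, was 3.70-fold higher. Cdh3, P-cadherin, was 3.69-fold higher, while Cdh1, E-cadherin, had 3.31, 3.75 and 3.82. Genes of the epithelial-mesenchymal transition had a median of 0.10, with none of 22 at least 4-fold different, against 2.93% of all genes. S100a4, a calcium-binding protein of motile cells, was 3.73-fold higher and Esrp1, an epithelial splicing factor, 2.99-fold higher. Tcf4 and Pdgfrb were 2.66-fold and 2.26-fold lower, other Tcf4 probes giving log2 ratios from -0.63 to -0.31.

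Keratins had a median of 0.08, within the spread between probes. Of 18, 6 were at least 2-fold higher on day 3 (6.96% of all genes were) and 2 at least 2-fold lower (8.23%). Krt19 had a signal of -2.37 on day 0, 2.36 on day 1 and 4.35 on day 3, and Krt18 3.46, 5.98 and 7.30, with ratios of 3.98-fold and 2.49-fold. Krt20 had -0.82, 6.29 and 4.72, 2.98-fold lower on day 3 than on day 1. Krt19 and Krt7 are markers of mesothelium as well, a list in which all 9 members had ratios above 0 and 2, Msln and Upk3b, were at least 4-fold higher; Muc16, at 0.12, would lie below 0 with reference gene scaling. Upk3b had -5.29 on day 0, -5.18 on day 1 and -1.33 on day 3. The part of such cells in the keratin values was not tested. Injury genes had a median of 0.40: Vcam1 and Fgb, fibrinogen beta, were past 4-fold, C3 and Timp1 were 3.29-fold and 3.25-fold higher, and Havcr1, the injury marker Kim-1, had -1.57, 5.04 and 5.26, so that its difference lay in the first day. Lgals3, galectin 3, was 2.19-fold lower. C3 had a log2 ratio of 0.27 by its other probe.

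Chaperones of the endoplasmic reticulum were higher on day 3 after being a little lower on day 1. Their median signal was 3.52 on day 0, 3.40 on day 1 and 4.25 on day 3. Of 21 members 20 had ratios above 0 and 10 were at least 2-fold higher, against 6.96% of all genes, with a median log2 ratio of 0.73. Sdf2l1, a cofactor of the chaperone BiP, had 0.48 on day 0, -0.15 on day 1 and 2.15 on day 3, 4.92-fold higher than on day 1. Hsp90b1, the chaperone Grp94, had 5.54, 4.58 and 6.37, 3.45-fold higher, and Pdia4, a disulfide isomerase, 0.53, -0.70 and 0.94, 3.11-fold higher. Manf, a secreted factor of this stress response, was 3.33-fold higher. Dnajb9 ran the other way, with a log2 ratio of -0.66. Heat shock genes, which serve the cytosol, had a median of -0.11 and Atf4 targets one of 0.42, with Aldh1l2, a mitochondrial folate enzyme, 3.84-fold higher and the factor Atf5 2.78-fold lower.

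Cholesterol and fatty acid synthesis had a median log2 ratio of 0.84, with 30 of 31 members above 0 and 9 at least 2-fold higher. Scd2 and Scd1, which desaturate fatty acids, were 5.69-fold and 3.87-fold higher. Scd2 had a signal of 2.60 on day 0, 2.99 on day 1 and 5.49 on day 3, and Scd1 0.96, -1.11 and 0.84. Fads2, a desaturase of polyunsaturated fatty acids, was 2.79-fold higher, and Fdps of the sterol pathway 3.10-fold higher, with a log2 ratio of -0.10 by its other probe. Elovl6, a fatty acid elongase, was 1.89-fold lower. Glycolysis had a median of 0.33: Slc16a3, a lactate exporter, had a log2 ratio of 1.14, and Pkm, pyruvate kinase, was 1.97-fold higher. Hk2, hexokinase 2, had -3.94, 4.01 and 4.58, most of its difference lying in the first day.

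Many genes that carry out the work of the proximal tubule were lower still on day 3. Over 7 lists of transport and metabolism, 57 of 239 members (23.8%) were at least 4-fold lower than on day 1, against 1.31% of all genes, and 1 was 4-fold higher. Of the 239, 188 lay below 0, as did 53.7% of all genes. The median log2 ratio was -0.69, which with spike-in scaling became -0.24, within the spread between probes. Their medians from day 0 to day 1 had been larger, from -2.04 to -2.63 on the log2 scale, than those from day 1 to day 3, from -0.37 to -0.97. The second interval thus held large ratios in some members and ratios near 0 in others, rather than a like step in all.

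Apical transporters had a median of -0.89, and 11 of 35 were at least 4-fold lower, against 1.31% of all genes. Slc5a2, the glucose transporter SGLT2, had a signal of 5.53 on day 0, 3.49 on day 1 and -0.33 on day 3, 14.2-fold lower than on day 1. Slc9a3, the sodium-proton exchanger NHE3, was 9.12-fold lower by its brighter probe and had a log2 ratio of -0.19 by its other. Abcg2, an efflux pump, had a log2 ratio of 0.13, and Slc7a9, a cystine transporter, had 4.82, -0.22 and -0.20, so that neither differed by more than the spread between probes after day 1. Abcc4, an efflux pump of organic anions, had a log2 ratio of 0.43 and Slc13a2 one of 0.15.

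On the basolateral side the median was -0.50 and 5 of 23 were at least 4-fold lower. Slc22a6 and Slc22a8, the organic anion transporters OAT1 and OAT3, were 11.2-fold and 7.64-fold lower, their other probes running the same way with log2 ratios from -3.51 to -0.75. Slc22a7, another organic anion transporter, had 2.65 on day 0, -0.85 on day 1 and -3.60 on day 3, 6.71-fold lower than on day 1. Brush border and endocytosis genes also had a median of -0.50, and 5 of 31 were at least 4-fold lower. Treh, the disaccharidase trehalase, was 12.5-fold lower, Dpep1, a dipeptidase, 9.35-fold, and Cltrn, a chaperone of amino acid transporters, 7.39-fold. Cubn and Lrp2, the endocytic receptors cubilin and megalin, had most of their difference in the first day, Lrp2 having 7.09, 2.87 and 1.68. Clcn5 and Mme had log2 ratios of 0.89 and 0.87. With spike-in scaling the medians of the basolateral and brush border lists were both -0.05.

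Gluconeogenesis and fructose metabolism had a median of -0.87, and 4 of 13 were at least 4-fold lower. Fbp1, fructose bisphosphatase, had a signal of 7.89 on day 0, 5.29 on day 1 and 1.27 on day 3, 16.3-fold lower than on day 1. Khk and G6pc, enzymes of fructose use and glucose release, were 5.79-fold and 4.23-fold lower, while Pck2, the mitochondrial carboxykinase, was 2.34-fold higher. Amino acid metabolism had a median of -0.70, and 11 of 52 were at least 4-fold lower. Hpd, an enzyme of tyrosine breakdown, had 3.40, 0.23 and -3.42, 12.5-fold lower, and Pipox was 8.07-fold lower. Tat, tyrosine aminotransferase, ran the other way at 2.99-fold higher.

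Drug, steroid and vitamin D metabolism had 15 of 43 members at least 4-fold lower and a median of -0.97. Its 1 member past 4-fold the other way was Cyp24a1, which inactivates vitamin D, with a signal of 2.89 on day 0, -2.10 on day 1 and 0.55 on day 3. Hsd11b1, which activates glucocorticoids, was 3.35-fold higher, from -1.04 to 0.70. Fatty acid oxidation and peroxisome genes had a median of -0.37 that became 0.08 with spike-in scaling, so the list has no settled direction. Yet 6 of its 43 members were at least 4-fold lower: Hao2, a peroxisomal oxidase, had 5.08, 1.91 and -2.29 and was 18.3-fold lower, and Acsm2, an acyl-CoA synthetase, was 13.3-fold lower. Acadm, the medium-chain dehydrogenase of beta oxidation, had a log2 ratio of -1.29, and Cpt2 one of -0.02.

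Transcription factors of the proximal tubule had a median of -0.24, within the spread between probes. Of 26, 0 were at least 4-fold different, against 2.93% of all genes. Klf15 was 3.10-fold lower by its brighter probe, with a log2 ratio of -0.15 by its other, and Nr1h4, the bile acid receptor FXR, 2.69-fold lower, from 1.31 to -0.12. Hnf4g and Nr1i3 were 2.32-fold and 2.16-fold lower. Hnf4a, a main regulator of this segment, had 3.62 on day 0, 0.47 on day 1 and 0.22 on day 3, so it differed mainly over the first day. The respiratory chain, the citrate cycle, ribosomal proteins and ribosome biogenesis had medians of -0.20, -0.17, 0.03 and -0.14, also within the spread. None of their members was at least 4-fold different, against 2.93% of all genes.

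Nrf2 and oxidative stress genes had a median of -0.41, with 25 of 28 below 0, which became 0.04 with spike-in scaling, so no direction is given. Gpx3, a secreted glutathione peroxidase made by this tubule segment, was the 1 member at least 4-fold lower, at 8.32 on day 0, 6.98 on day 1 and 4.91 on day 3. Gclc, the limiting enzyme of glutathione synthesis, was 3.19-fold lower, from 4.57 to 2.90, and the metallothionein Mt1 2.67-fold lower. Hmox1, heme oxygenase 1, had 3.22, 6.44 and 6.34, a difference of the first day. Hypoxia genes, glucocorticoid induced genes and immediate early genes had medians of 0.03, -0.16 and 0.19. Sgk1, a kinase induced by glucocorticoids, was 3.99-fold lower by its brighter probe, with a log2 ratio of -0.20 by its other. Klf4 and Fos, an epithelial factor and an immediate early factor, were 3.00-fold and 2.63-fold higher; Fos had 5.44, -1.26 and 0.13 and stood far below day 0 on both later days.

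Endothelial markers were lower on day 3 together. Of 11, 10 had ratios below 0, against 53.7% of all genes, with a median log2 ratio of -1.44. Their summed signal was 3829% of the 75th percentile on day 0, 2478% on day 1 and 999% on day 3. Cdh5, the endothelial cadherin, had a signal of 0.51 on day 0, 1.30 on day 1 and -0.74 on day 3. Kdr and Flt1, receptors of Vegf, had log2 ratios of -1.72 and -1.62, with other Flt1 probes from -1.73 to -0.22. Vwf was the exception at 0.09, and would lie below 0 with reference gene scaling; Plvap, at -0.20, would lie above 0 with spike-in scaling. The median of the podocyte markers was 0.58, and 2 of 8 reached 4-fold upwards, against 1.62% of all genes. Nphs1, or nephrin, had a log2 ratio of 0.05. Urothelial markers had a median of 0.27 and none of 10 was at least 4-fold different, against 2.93% of all genes.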

How the data were processed

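Expression was measured in 3 samples on Agilent mouse 1-colour arrays of 45018 spots, 1639 of them controls. In the deposited array files a spot's signal is an intensity, background subtracted and detrended by Feature Extraction 10.5.1.1 per the file headers; the submitters' processing notes name version 9.1. A multiplicative trend correction was found on the day 0 and day 1 arrays and not on day 3. This was judged by whether the processed signal differed from the background subtracted signal. Flags of other kind (well above background, saturated, outlier) are those of the authors' files. The authors' deposited value table holds a ratio, the processed signal over the array's 75th percentile: each array's 43379 values differed from it by at most 0.001. Its columns had medians of 0.187, 0.162 and 0.151.

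Here the log2 processed signal minus the log2 75th percentile of non-control spots was used. The 75th percentile was 1184, 1509 and 1515 intensity units on day 0, day 1 and day 3, and 18738, 18611 and 18877 genes were well above background. Outlier spots were left out (94, 102 and 85), no spot was saturated, and spots of a probe were averaged. Of 41174 probes 26998 were named by accession in the RefSeq table, 4957 by symbol, 808 by synonym and 8411 not at all. The probe with the highest mean stood for its gene. A probe not well above background on 1 array gave a bound. Probe positions are on mm9; their place in exons or UTRs was not used here. Promoters were 1 per gene, from RefSeq.

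With 1 sample a group no test, error between samples or p-value exists; precision is limited by the number of arrays. The 49 gene lists, 11 marker lists and the members were chosen with earlier results of these data known. Named genes are the 12 largest ratios in each direction, leaving out clone names and genes whose probes disagreed, the 4 largest bounds, the 6 largest under 2-fold and the 4 largest reversed from day 0 to day 1, and in each list up to 4 members in its direction and 2 against. Other list members and markers are named after their values were seen. The ratios were tested on simulated data in which every probe counted as well above background and only brighter genes were changed. The bounds were not tested in this way. Alternatives were other scalings, normexp, the trend correction undone, other filters, probe and outlier rules, the authors' table and other thresholds. Python 3.11.15, pandas 2.3.3, numpy 2.4.6, R 4.3.3 and limma 3.58.1 (normexp, offset 50) were used. Results for some genes are not reported here.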

Additional observations from a re-analysis of the deposited data

Results flagged for a closer look

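Probes without a gene name lie outside the comparison of genes and also carried signal. Of 8411 such probes 1 had no usable spot on all 3 arrays, and of the other 8410, 6379 were well above background on at least 1 of the 2 arrays. On day 3, 46 of them (0.721%) were at least 4-fold higher than on day 1 and 74 (1.16%) at least 4-fold lower. Both shares stand below those of the named genes, 1.62% and 1.31%. These are what the deposited arrays hold beyond the named genes, and no gene is attached to them here.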

How the results depend on the processing

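At least 4-fold, 308 genes were higher, 250 lower and 558 either way. With the spike-in controls 569 were higher and 131 lower. With normexp 132 were lower and 347 different either way. At a 2-fold threshold the counts were 1323, 1565 and 2888, and at 8-fold 119, 67 and 186. Median centring, quantile normalization, reference genes, the trend correction undone, genes well above background on both arrays, no filter, the mean of probes, outliers included and the authors' table gave 241 to 351 higher and 197 to 365 lower. Of 49 list medians 33 lay above 0, and 24 to 42 did over the alternatives. The spike-in controls reversed the medians of fatty acid oxidation, from -0.37 to 0.079, and Nrf2, from -0.41 to 0.041; the scaling adds a constant to every ratio. Of 297 named genes, 0 with at least a 2-fold ratio changed sign under these alternatives. Of those past the spread between probes but under 2-fold, 12 changed sign with the spike-in controls, Myc and Sod2 among them, and 2 with the mean of all probes, P4ha2 among them. By the mean of all probes 49 moved beyond that spread, with normexp 98 and with the trend correction undone 34. The promoter share with TTTGAA in mitotic lists went from 31.2% to 63.6% with 300 bases, a window chosen after seeing the data. No paired analysis was possible because each group holds 1 array. Faint signals limit the 538 bounds.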
